A study of Sus scrofa with 16 samples.

Results

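The miRNAs of the imprinted DLK1-DIO3 cluster were described in the ovaries of 16 Canadian Large White sows. Members were the entries of the deposited small RNA count table whose miRNA number belongs to this cluster (miR-127, miR-136, miR-299, miR-323, miR-369, miR-370, miR-376, miR-382, miR-411, miR-432, miR-487, miR-493, miR-495, miR-541, miR-543 and miR-758). The rule used names only and no measured value. Of the 216 known miRNAs among the 1940 entries, 6 were members, namely ssc-miR-127, ssc-miR-136, ssc-miR-376a-5p, ssc-miR-376c, ssc-miR-432-5p and ssc-miR-493-5p. Of 30 further cluster names searched in the table, 1 was found, ssc-miR-381. The sows formed 4 groups of 4, and each sow gave 1 small RNA library. LH (high fecundity) and LL (low fecundity) were sampled in the luteal phase, on day 14 counted from the first day of estrus. FH (high fecundity) and FL (low fecundity) were sampled in the follicular phase, on day 20. The study set high and low fecundity by the number of piglets born, and its records give high-fecundity sows parities that are higher than, or in the follicular phase at least equal to, those of low-fecundity sows, so fecundity and parity were not separated by the design. The sample was whole ovary, in which fewer cells of a type and less RNA per cell cannot be told apart.

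In mammals, the DLK1-DIO3 region carries protein-coding genes that are expressed from the paternal chromosome (DLK1, RTL1 and DIO3) and non-coding RNAs, among them MEG3 and a large group of miRNAs, that are expressed from the maternal chromosome. The miRNAs are thought to be cut largely from long shared transcripts, which is why their joint behaviour is of interest. miR-127, miR-432 and miR-136 lie antisense to RTL1, a retrotransposon-derived gene best known from the placenta, and miR-127 can direct the cleavage of its transcript. miR-376a and miR-376c belong to a group of very similar miRNAs, and reads of such copies may be split between them in counting. In the RefSeq annotation of Sscrofa11.1, a later build than the one used for mapping, the order on chromosome 7 was BEGAIN, DLK1, MEG3, MIR493, RTL1, MIR127, MIR432 and MIR136. MIR376A, MIR376C and MIR381 carried no chromosome there.

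On scaffold GL894231.1 of Sscrofa10.2, 11 predicted miRNA loci lay between positions 6733 and 31743, a span of 25011 bases, all 11 on the minus strand. No other unplaced scaffold held more than 3 loci. The scaffold was chosen because several of these sequences resemble cluster miRNAs of other mammals, a likeness that was not tested, and the sources used here place it on no chromosome. The sequences below are the mature sequences, 5′ to 3′. They belong to the 5 loci called lower in the follicular phase and to NovelmiRNA-702, which has the same seed as NovelmiRNA-254. NovelmiRNA-203 and NovelmiRNA-702 passed the filter for low counts only through their luteal counts. The call of NovelmiRNA-203, on few counts, is therefore a description. Capitals mark the seed, bases 2 to 8.
NovelmiRNA-203: aGAGGUCUuccauggugcauucg
NovelmiRNA-1444: cCCAAUACacggucgaucucu
NovelmiRNA-254: gUCAUACAcggcucuccucucu
NovelmiRNA-181: uGUAUGUCaacugauccacagu
NovelmiRNA-1146: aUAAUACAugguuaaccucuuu
NovelmiRNA-702: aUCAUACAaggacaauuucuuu
The precursors lie at 12263 to 12325 (NovelmiRNA-203), 15871 to 15927 (NovelmiRNA-1444), 16617 to 16675 (NovelmiRNA-254), 20909 to 20962 (NovelmiRNA-181), 23072 to 23131 (NovelmiRNA-1146) and 25703 to 25764 (NovelmiRNA-702). The other 5 loci have seeds of their own.

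Libraries held 8998496 to 37194836 counts. The members together took 0.0089% (FH4) to 0.171% (FL4) of the counts of a library. Levels are given in CPM, counts scaled to a common library size, taken over the tested entries of a library after TMM scaling, a correction for a few abundant miRNAs taking up reads. TMM factors were 0.851 to 1.07 for LH, 1.19 to 1.74 for LL, 0.670 to 0.942 for FH and 0.741 to 1.23 for FL. Where no read was counted, the level may still reach 3 counts, which is 0.0807 to 0.333 CPM depending on the library, and this covers counting error only. The gonad miRNA ssc-miR-202-5p was found in all libraries, from 64.5 CPM in FL4 to 3843 CPM in LL2. The epithelial miRNA ssc-miR-34c, 1 of a list of 5 that is summed below, stood at 21380 CPM in LH4, 7335 CPM in FL2 and 15220 CPM in FL4. It was at 196 CPM or less in the other 13 libraries. FL4 is also the library with the highest level of 3 members, and fold changes of members that FL4 moves are given with and without it. Fold changes of the scaffold loci and of the miRNAs most like the members are given with FL4 only. So is that of ssc-miR-381 between the phases.

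ssc-miR-127 was the most abundant member and made up 85.6% to 96.9% of the members' summed CPM. It ranked 80th of the 216 known miRNAs by mean CPM. In LH it was measured at 729, 250, 555 and 294 CPM in sows 1 to 4. In LL the levels were 478, 653, 356 and 424 CPM. FH gave 330, 137, 133 and 105 CPM, and FL gave 166, 469, 281 and 1332 CPM. The FH sows were low apart from FH1, the FL sows were the most spread, with FL4 above every other sow, and FH2, FH3 and FH4 lay below all other sows.

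ssc-miR-432-5p, whose gene follows that of miR-127 in the order above, was far lower in CPM. LH sows had 6.33, 2.28, 6.15 and 2.61 CPM, and LL sows 7.10, 8.05, 6.29 and 6.71 CPM. In FH the levels were 5.81, 1.92, 1.48 and 1.78 CPM, and in FL 2.17, 4.68, 4.08 and 10.9 CPM. FH1 and FL4 were the highest of their groups, as they were for ssc-miR-127, and LL was the tightest group (7.04 ± 0.749 CPM, SD, n = 4).

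ssc-miR-493-5p, the member nearest to MEG3 in the annotated order, was measured at 7.84, 2.80, 6.91 and 2.96 CPM in LH and at 3.31, 5.16, 3.85 and 4.17 CPM in LL. FH sows had 1.91, 0.564, 1.20 and 0.727 CPM, and FL sows 1.19, 1.56, 1.90 and 2.26 CPM. All 8 luteal sows lay above all 8 follicular sows. These levels rest on 60 to 125 counts per library in the luteal groups and on 5 to 40 in the follicular groups.

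ssc-miR-136 had 19.1, 9.37, 41.0 and 27.8 CPM in LH and 16.8, 5.47, 19.2 and 27.9 CPM in LL. FH sows had 20.7, 13.2, 15.1 and 10.8 CPM, and FL sows 14.7, 6.34, 24.8 and 32.7 CPM. The groups overlapped throughout, and sow 2 of each of LH, LL and FL was the lowest of its group. ssc-miR-376c had 2.32, 2.38, 4.51 and 3.82 CPM in LH and 4.73, 1.91, 4.18 and 5.68 CPM in LL. In FH it had 4.21, 3.95, 4.44 and 2.29 CPM, and in FL 3.42, 4.48, 9.97 and 20.1 CPM. FL3 and FL4 lay above every other sow, while the other 14 sows shared a range.

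ssc-miR-376a-5p, the 5′ arm of miR-376a, was at the limit of detection, with 0 to 10 counts per library and 85 counts in all. It was at 0 in FH2, FH4 and FL2, failed the filter for low counts, and was therefore not tested. The other 5 members passed the filter in all comparisons.

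ssc-miR-381, the cluster miRNA found by the wider list, was more abundant than any member. LH sows had 2814, 1104, 2253 and 1096 CPM, LL sows 1113, 1834, 1122 and 1660 CPM, FH sows 1218, 614, 592 and 467 CPM, and FL sows 1298, 863, 1126 and 2593 CPM. As for ssc-miR-127, FH2, FH3 and FH4 were the lowest 3 sows.

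**Figure D1:**
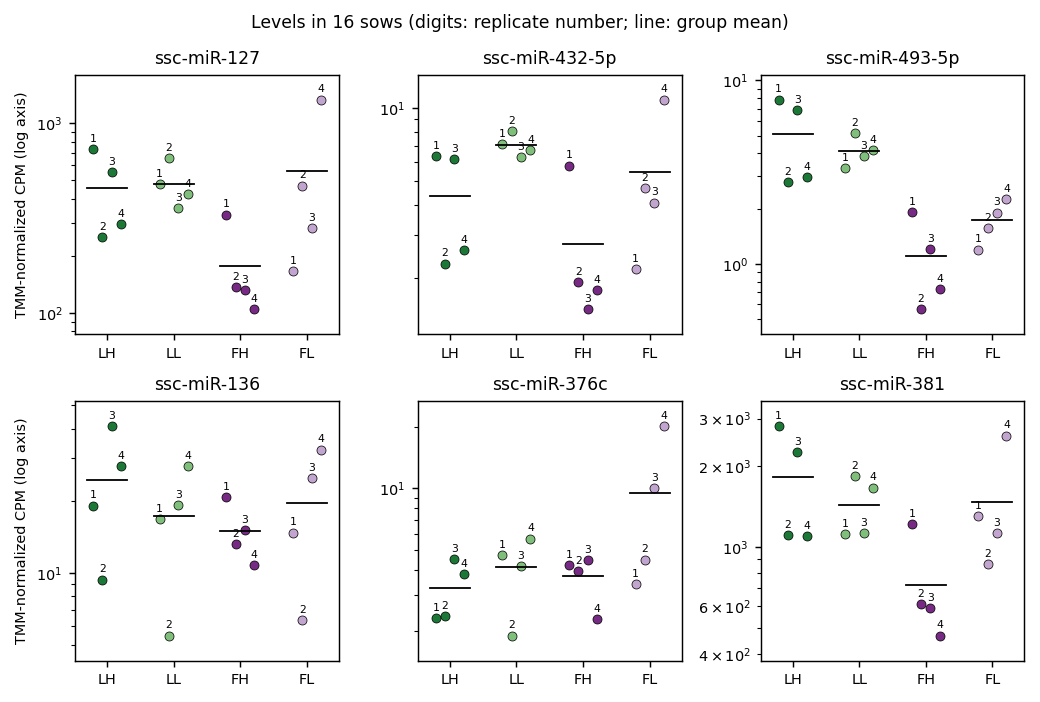
TMM-normalized CPM (log axis) of 5 members and ssc-miR-381 in each of the 16 sows, by group, with replicate numbers above the points and the group mean as a line. For ssc-miR-493-5p the 8 luteal sows (2.80 to 7.84 CPM) all lie above the 8 follicular sows (0.564 to 2.26 CPM), whereas the groups overlap for ssc-miR-136.

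The first question was whether members differed between the phases. edgeR's quasi-likelihood test over all 16 libraries called 1 of the 5 tested members, ssc-miR-493-5p, which was 3.32-fold lower in the follicular phase (log2 fold change -1.73, SE 0.44, edgeR adjusted p = 0.0170). This call passed both the study's threshold (P under 0.05 before adjustment and a log2 fold change of 1 or more in either direction), which 23.4% of all 445 tested entries passed, and an adjusted p under 0.05 (17.5%). LH averaged 5.13 ± 2.62 CPM, LL 4.12 ± 0.776, FH 1.10 ± 0.605 and FL 1.73 ± 0.457 (SD, n = 4 each). Phases that do not overlap, with the follicular sows lower, were found for 0.449% of the 445 entries and with the follicular sows higher for 1.35%. The exact two-sided permutation test of ssc-miR-493-5p within fecundity groups gave p = 0.000408, the smallest that its 4900 orders allow. That FH lay below LH and FL below LL follows from this separation and is no further evidence. Each had an exact permutation p = 0.0286, the smallest possible with 4 against 4. The share of entries that separate in these smaller comparisons was not taken.

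The other members gave values that did not pass either threshold in edgeR's test. The log2 fold changes of the follicular over the luteal phase were -0.57 (SE 0.41) for ssc-miR-127, -0.51 (SE 0.47) for ssc-miR-432-5p, -0.26 (SE 0.44) for ssc-miR-136 and 0.70 (SE 0.45) for ssc-miR-376c. The median over the 5 members was -0.51, beside -0.17 over all tested entries. ssc-miR-381 had -0.65 (SE 0.30, edgeR adjusted p = 0.148). With FL4 left out, ssc-miR-376c had 0.39, ssc-miR-136 -0.40 and ssc-miR-432-5p -0.80, which was also the members' median, beside -0.41 over all tested entries. ssc-miR-127 then had a log2 fold change of -1.01 and an edgeR adjusted p = 0.0443, so that 2 members then passed both thresholds. The share of the 512 entries tested without FL4 that passed is not given, so that this count is a description. Over the leave-one-out fits the edgeR adjusted p of ssc-miR-127 ran from 0.0443 to 0.542.

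For ssc-miR-493-5p, the unadjusted P and fold change passed the study's threshold in all 16 leave-one-out fits (log2 fold change -1.91 to -1.60), and edgeR's adjusted p ran from 0.0185 to 0.0610. It was over 0.05 without LH1 (0.0610), FH2 (0.0506), FH3 (0.0521), FH4 (0.0535) or FL3 (0.0523). With LH4, FL2 and FL4 left out together, an alternative chosen after seeing the data, its log2 fold change was -1.90 and the edgeR adjusted p = 0.0840. With no filter on low counts the log2 fold change was -1.77 and the edgeR adjusted p = 0.994.

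The second question was whether members differed with fecundity in the luteal phase. In LL against LH, edgeR put 0 of the 5 tested members past the study's threshold, which 13.0% of the 362 tested entries passed, and 0 past an adjusted p under 0.05 (0.829%). DESeq2 put 0 past the same threshold (14.9% of entries). Before adjustment, 0 members had P under 0.05 by edgeR (18.0% of entries) and 0 by DESeq2 (22.1%). ssc-miR-432-5p had the highest log2 fold change, 0.74 (SE 0.52, edgeR adjusted p = 0.524), with 3 of the 4 LL sows above all LH sows. ssc-miR-376c had 0.37 (SE 0.56), ssc-miR-127 0.10 (SE 0.38), ssc-miR-493-5p -0.27 (SE 0.54) and ssc-miR-136 -0.45 (SE 0.62). The median over the members was 0.10, beside 0.15 over all tested entries. ssc-miR-381 had -0.31 (SE 0.36, edgeR adjusted p = 0.688).

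In the follicular phase, FL against FH, all 5 tested members had a log2 fold change above 0, as had 54.4% of the 307 tested entries, and their median was 0.85, beside 0.12 over all tested entries. Again edgeR put 0 of the 5 past the study's threshold (6.19% of entries) and 0 past an adjusted p under 0.05 (0.651%). At P under 0.05 before adjustment there were 0 members, beside 7.17% of entries. ssc-miR-127 was at the edge, with a log2 fold change of 1.50 (SE 0.65, edgeR adjusted p = 0.644) and an edgeR P of 0.05004. DESeq2 put it past the study's threshold (log2 fold change 1.49, DESeq2 adjusted p = 0.290), so that its count of members was 1, beside 8.47% of entries. Its log2 fold change was 0.73 without FL4, 0.60 with clean read share in the model, 0.86 with parity in the model and 0.34 with FL2 and FL4 left out. The group means were 176 ± 104 CPM in FH and 562 ± 528 CPM in FL (SD, n = 4), and 2 of the 4 FL sows lay above all FH sows. ssc-miR-376c had 1.19 (SE 0.60, edgeR adjusted p = 0.678), with 3 FL sows above all FH sows, and 0.62 without FL4. ssc-miR-432-5p had 0.85 (SE 0.65), ssc-miR-493-5p 0.57 (SE 0.55), ssc-miR-136 0.30 (SE 0.52) and ssc-miR-381 0.94 (SE 0.43). Without FL4 these were 0.36 for ssc-miR-432-5p, 0.47 for ssc-miR-493-5p, 0.039 for ssc-miR-136 and 0.63 for ssc-miR-381, and the members' median fell to 0.47.

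**Figure D2:**
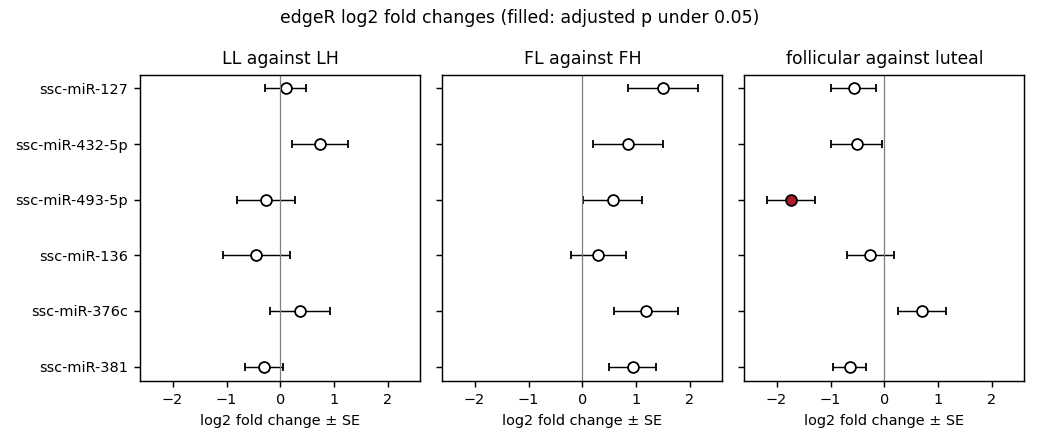
edgeR log2 fold changes (points) with their SE (bars) for 5 members and ssc-miR-381 in 3 comparisons; filled points have an adjusted p under 0.05. ssc-miR-493-5p, at -1.73 in the follicular against the luteal phase, is the single filled point, and in FL against FH all 6 points lie above 0 without passing the threshold.

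Over both phases, low against high fecundity, edgeR put 0 of the 5 members past the study's threshold (11.7% of the 445 tested entries) and 0 past an adjusted p under 0.05 (0.0%). At P under 0.05 before adjustment, edgeR had 0 members (17.5% of entries), whereas DESeq2 had 3 (21.1% of entries), namely ssc-miR-127, ssc-miR-376c and ssc-miR-432-5p, and 0 past the study's threshold (12.6%). The log2 fold changes by edgeR were 0.87 (SE 0.41) for ssc-miR-127, 0.85 (SE 0.45) for ssc-miR-376c, 0.84 (SE 0.47) for ssc-miR-432-5p, 0.17 (SE 0.43) for ssc-miR-493-5p and -0.047 (SE 0.44) for ssc-miR-136. Without FL4, ssc-miR-127 had 0.39, ssc-miR-376c 0.47, ssc-miR-432-5p 0.52, ssc-miR-493-5p 0.068 and ssc-miR-136 -0.23. For the interaction, which asks whether the fecundity difference differed between the phases, edgeR likewise put 0 of 5 past the study's threshold (13.3%) and 0 past an adjusted p under 0.05 (0.0%). Before adjustment, 0 members had P under 0.05 by edgeR (14.2% of entries) or by DESeq2 (18.4%), and DESeq2 put 0 past the study's threshold (16.6%). The interaction log2 value was 1.61 (SE 0.83, edgeR adjusted p = 0.364) for ssc-miR-127, and 0.29 to 1.01 for the other 4. Without FL4, ssc-miR-127 had 0.73, and with LH4, FL2 and FL4 left out it had 0.42. The others ran from -0.27 (ssc-miR-432-5p) to 0.83 (ssc-miR-493-5p) without FL4. ssc-miR-381, which is no member, had 1.37 (SE 0.60, edgeR adjusted p = 0.326), which passed the study's threshold but not the adjusted one, and 1.01 without FL4, which passed neither. Exact two-sided permutation tests of the 5 members in 4 comparisons (20 tests, not adjusted) gave a p under 0.05 in 2, ssc-miR-493-5p between the phases as above and ssc-miR-432-5p between low and high fecundity (p = 0.0306). For the latter, edgeR's P before adjustment was 0.0959. The share of all tested entries under 0.05 by the exact test is not given, so that the count of 2 is a description.

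Whether members moved together was asked of the deviations of each sow from its group mean, so that differences between groups do not enter. In FL4 all 5 tested members lay above their group mean, by 1.04 on the log2 scale on average. All 5 were also above it in FH1 (0.642 on average) and LH3 (0.545). None was above it in LH2 (-0.665 on average), FH4 (-0.406) or FL1 (-0.723). In the other 10 sows 1 to 4 members were above it.

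**Figure D3:**
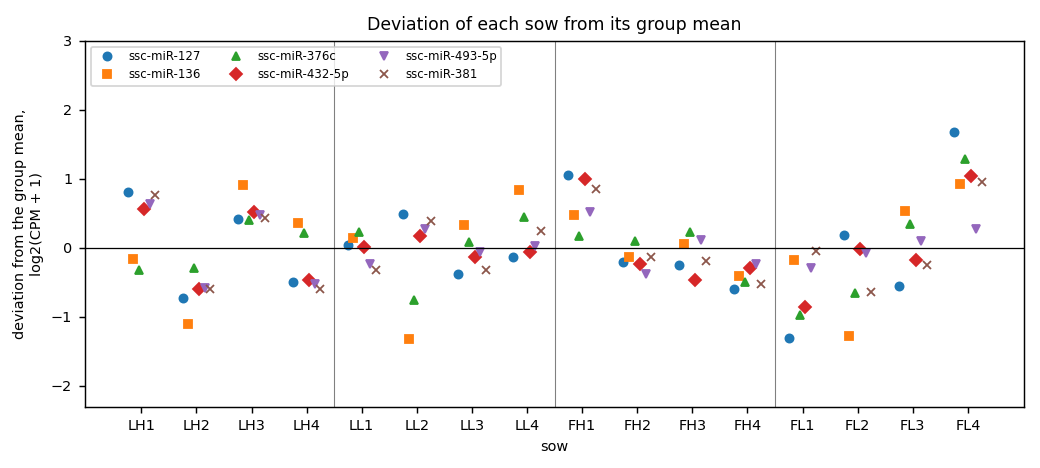
Deviation of log2(CPM + 1) from the group mean in each sow, for 5 members and ssc-miR-381. In FL4, FH1 and LH3 all points lie above 0 and in LH2, FH4 and FL1 all lie below 0, whereas in LL2 and FL2 ssc-miR-136 and ssc-miR-376c lie below the other members.

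Pearson correlations of the group-centred log2(CPM + 1) over the 16 sows were above 0 for all 10 pairs of tested members, from 0.231 to 0.957, with a median of 0.493. The median over all 19900 pairs of the 200 known miRNAs tested was 0.0509, and 13.7% of those pairs lay above the members' median. The median Spearman rho of the 10 pairs was 0.350. In the luteal libraries alone the median Pearson r was 0.192, with 7 of 10 pairs above 0, and in the follicular libraries alone it was 0.713, with all 10 above 0. Over the libraries of both phases without FL4, the median Pearson r was 0.227.

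One pair passed the adjustment over all 19900 pairs, of which 0.412% passed. ssc-miR-127 and ssc-miR-432-5p had r = 0.957 (exact permutation p = 7.54e-05, Benjamini-Hochberg adjusted p = 0.0417) and rho = 0.944 (exact permutation p = 4.22e-05, adjusted p = 0.0467). Their r was 0.950 in the luteal libraries, 0.960 in the follicular libraries and 0.927 without FL4 and FH1, the 2 sows farthest from the median. In the order above, which lists only the genes named there, MIR127 is followed by MIR432 and MIR432 by MIR136. ssc-miR-136 had r = 0.372 with ssc-miR-432-5p and 0.25 with ssc-miR-127. Whether r goes with gene order was not tested.

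ssc-miR-493-5p went with the same pair, with r = 0.797 with ssc-miR-432-5p (exact permutation p = 0.00217, adjusted p = 0.106; rho = 0.803, p = 0.00412, adjusted p = 0.146) and r = 0.737 with ssc-miR-127 (exact permutation p = 0.00121, adjusted p = 0.0937; rho = 0.765, p = 0.00500, adjusted p = 0.156). Without FL4 and FH1 these were 0.807 and 0.742. ssc-miR-136 and ssc-miR-376c formed another pair, with r = 0.801 (exact permutation p = 0.00146, adjusted p = 0.0963) and rho = 0.897 (p = 0.000552, adjusted p = 0.0851). Their r was 0.930 in the luteal libraries, 0.796 in the follicular libraries and 0.734 without LL2 and FL2. None of these 3 pairs passed the adjusted threshold.

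Between the trio and the pair, r was lower. The 6 values ran from 0.231 (ssc-miR-376c and ssc-miR-493-5p) to 0.496 (ssc-miR-376c and ssc-miR-432-5p), with exact permutation p from 0.128 to 0.470 and adjusted p from 0.478 to 0.775. In the luteal libraries, r between ssc-miR-127 and ssc-miR-376c was -0.273, and in the follicular libraries it was 0.742. Without FL4 and FH1, the r of 0.489 over all sows fell to 0.137. Whether r differed between the phases, or between the trio and the pair, was not tested. ssc-miR-381 went with the trio in value, with r of 0.787 with ssc-miR-127, 0.821 with ssc-miR-432-5p and 0.826 with ssc-miR-493-5p (exact permutation p = 0.00606, 0.00776 and 0.00216, adjusted p = 0.141, 0.157 and 0.106), and had 0.416 with ssc-miR-136 and 0.365 with ssc-miR-376c.

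Some values moved with the members from sow to sow. The mean deviation of the 5 members had r = -0.301 with the share of clean reads of a library, -0.280 with the log2 total count and -0.317 with parity. With the clean read share regressed out, the median r of the member pairs was 0.423. Its r with the summed level of the erythroid and leukocyte list (5 miRNAs, 0 of them at 0 in all libraries) was 0.749. That list spanned 222 to 535 CPM (LH), 367 to 592 (LL), 414 to 574 (FH) and 316 to 983 (FL), but one of its miRNAs, ssc-miR-142-5p, was listed at 0 in all 4 LH libraries, LL2 and FL1 and at 149 to 513 CPM in the other 10. How these zeros arose was not tested. Without this miRNA r was 0.561 and the list spanned 222 to 535 CPM (LH), 264 to 367 (LL), 265 to 373 (FH) and 316 to 470 (FL). The neural list (6 miRNAs) had r = 0.491, the gonad list (4) 0.420, the epithelial list (5) 0.362, the liver miRNA ssc-miR-122 0.0297, the stroma and smooth muscle list (5) -0.320 and the muscle list (6) -0.310. The summed epithelial list spanned 146 to 21830 CPM (LH), 383 to 1016 (LL), 277 to 300 (FH) and 157 to 16080 (FL). Its highest sums were mostly ssc-miR-34c, which had 21380 CPM in LH4 and 15220 CPM in FL4. In LL, ssc-miR-34c had 18.3 to 40.7 CPM, so that the sums there came mostly from the other miRNAs of the list. The stroma and smooth muscle list ranged from 96680 to 279300 CPM in the luteal groups and from 224000 to 531600 in the follicular groups. By edgeR's adjusted p, 3 of its 5 miRNAs were higher in the follicular phase. So were 3 of 5 tested of the muscle list (1 lower) and 2 of 5 of the erythroid and leukocyte list (0 lower). The median log2 fold change of the erythroid and leukocyte list was nevertheless -0.35. Its count of 2 is over all 5 miRNAs, with ssc-miR-142-5p and its zeros among them. The epithelial list had 1 higher and 2 lower, the gonad list 1 and 1, and the neural list 0 and 0. Of all 445 tested entries 17.5% were called, 8.99% as lower. These are descriptions over 16 sows, and the part of these cells, of depth and of parity in the levels of the members was not tested.

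The 5 known miRNAs whose deviations were most like the members' mean deviation, of 195 compared, were ssc-miR-363 (r = 0.793), ssc-miR-362 (0.789), ssc-miR-381 (0.785), ssc-miR-212 (0.785) and ssc-miR-222 (0.783). ssc-miR-381, named here by its number, was thus among them, and the 5 values hardly differ. In the follicular against the luteal phase, ssc-miR-222 had a log2 fold change of -1.41 (edgeR adjusted p = 0.0194) and ssc-miR-362 of -0.85 (edgeR adjusted p = 0.0342). Not called were ssc-miR-363 (-0.64, edgeR adjusted p = 0.123), ssc-miR-381 (-0.65, 0.148) and ssc-miR-212 (-0.85, 0.345), where 17.5% of all tested entries were called. In FL against FH, ssc-miR-212 (-1.29) and ssc-miR-362 (-0.14) were below 0, unlike the members, and the other 3 were above 0.

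The loci of the scaffold were tested after the counts of entries at the same position were summed, because predictions had been split by library. Of the 11 loci, 10 passed the filter over all 16 libraries, and edgeR's adjusted p called 5 of them lower in the follicular phase (14.1% of the 460 entries of the merged table). NovelmiRNA-1647, NovelmiRNA-464, NovelmiRNA-203 and NovelmiRNA-702 did not pass in the follicular libraries alone and entered through their luteal counts, so that the count of 5 is given as a description. The other 6 passed in the libraries of each phase alone. All 6 had a log2 fold change below 0, as had 56.9% of the 297 entries that passed in the same way, with a median of -1.44 beside -0.17. Of the 6, 4 were called lower, beside 16.8% of those entries. NovelmiRNA-1444 had 9.78, 2.98, 10.01 and 4.49 CPM in LH and 5.47, 12.3, 5.18 and 8.81 CPM in LL. In FH it had 3.89, 1.24, 1.27 and 1.31 CPM, and in FL 1.30, 2.14, 2.37 and 4.07 CPM. FH1 and FL4 alone reached the range of the luteal sows. The log2 fold change of NovelmiRNA-1444 was -1.84 (SE 0.40, edgeR adjusted p = 0.00741).

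NovelmiRNA-181 stood at 5.21 to 16.5 CPM (LH), 5.41 to 12.5 (LL), 1.53 to 4.79 (FH) and 2.34 to 7.91 (FL), a log2 fold change of -1.47 (SE 0.39, edgeR adjusted p = 0.0163). For NovelmiRNA-254 the fold change was -1.80 (SE 0.53, edgeR adjusted p = 0.0264), and its FH sows (0.451 to 1.91 CPM) lay below all LH sows (2.43 to 9.09 CPM). FL4, with 8.76 CPM, lay above all LL sows. NovelmiRNA-702, with the same seed, was at 0 in FH2, FL2 and FL3. It entered through its luteal counts, so that no fold change is given. NovelmiRNA-1146 had a log2 fold change of -1.41 (SE 0.43, edgeR adjusted p = 0.0295). NovelmiRNA-203, the fifth of the loci called, was at 0 in all 4 FH sows and in 3 FL sows. It had 14 counts in FL4 and 0 to 31 counts in luteal sows. NovelmiRNA-203 too entered through its luteal counts, so that neither fold change nor p is given. The count of 5 was 3 or less in 12 of the 16 leave-one-out fits, without LH1, LH3, LH4, LL2, LL3, LL4, FH2, FH3, FH4, FL1, FL2 or FL3, and 6 without FL4.

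**Figure D4:**
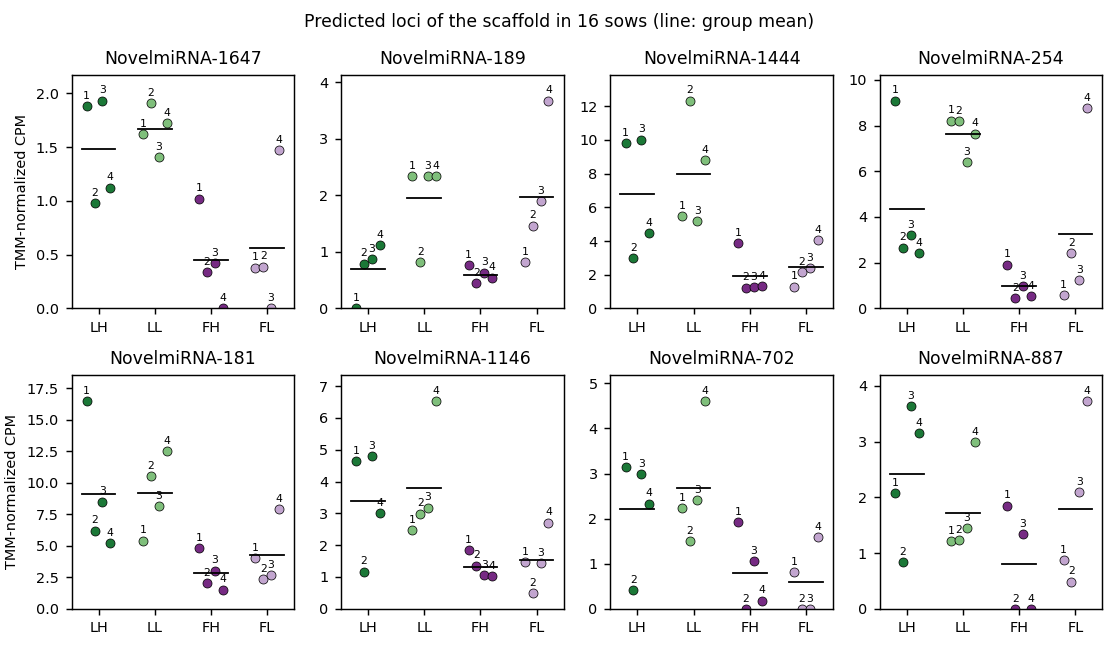
TMM-normalized CPM of the 8 scaffold loci with counts in 13 or more libraries, in each of the 16 sows by group, with replicate numbers and the group mean as a line. NovelmiRNA-1444 is at 2.98 to 12.3 CPM in the luteal sows and at 1.24 to 4.07 CPM in the follicular sows.

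The scaffold loci and the members were also compared from sow to sow. Over the 40 pairs of a tested member and one of 8 loci with counts in at least 13 libraries, the median r of the group-centred levels was 0.584 (-0.148 to 0.926), and 39 of the 40 were above 0. Among the 28 pairs of loci the median was 0.594. The highest values were 0.926 for ssc-miR-127 with NovelmiRNA-254 and 0.902 for ssc-miR-493-5p with NovelmiRNA-1444. ssc-miR-136 and ssc-miR-376c had their highest r with other loci, 0.794 with NovelmiRNA-887 and 0.837 with NovelmiRNA-189, respectively. Many of the loci have few counts, and all pairs share the 16 libraries and their depths, so that these correlations are descriptions. They were not set beside pairs of a locus and another known miRNA, nor taken without FL4. Without FL4 the members' own median r was 0.227, and FL4 was the highest FL sow for ssc-miR-127 and NovelmiRNA-254.

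**Figure D5:**
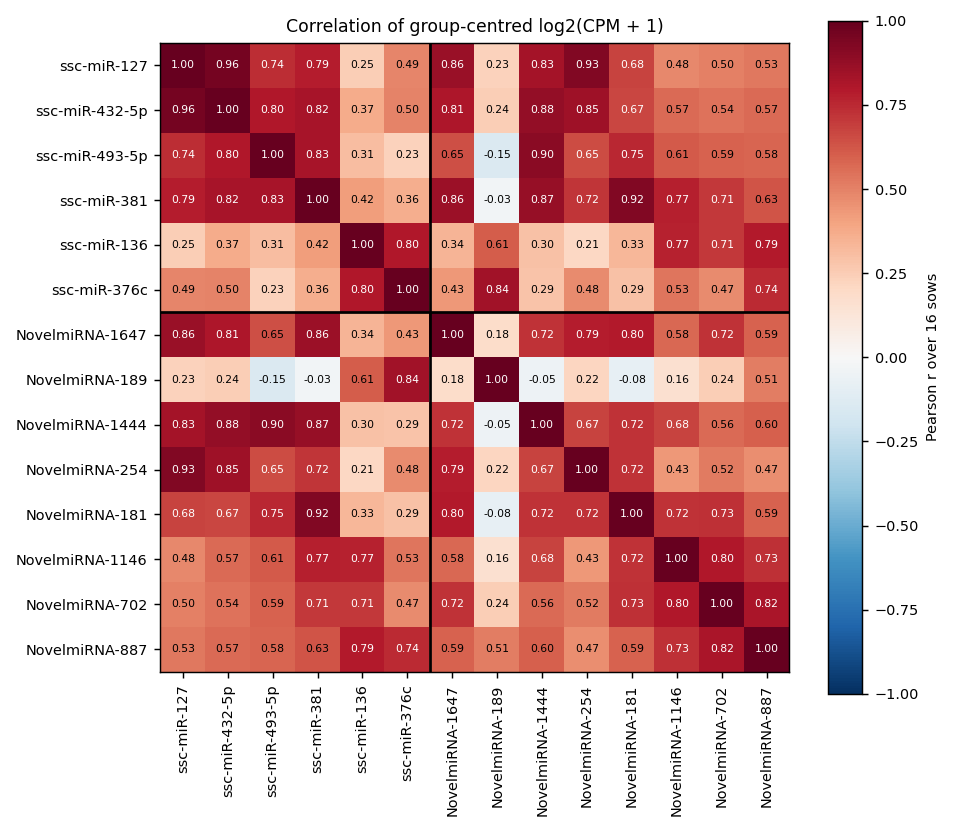
Pearson r over 16 sows of the group-centred log2(CPM + 1) for 5 members, ssc-miR-381 and 8 scaffold loci, with values printed in the cells and black lines parting named miRNAs from loci. ssc-miR-127, ssc-miR-432-5p, ssc-miR-493-5p and ssc-miR-381 form a block of 0.737 to 0.957, and ssc-miR-136 and ssc-miR-376c have 0.801 with each other.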

How the data were processed

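Small RNA was sequenced from whole ovaries of 16 sows. The authors trimmed reads with Trimmomatic, mapped them to Sscrofa10.2 with Bowtie2 (version 2.1.0 in the submitters' processing notes) and used miRDeep to predict miRNAs. The deposited values are raw counts of reads per miRNA and library, which the authors did not normalize. The rule that assigned reads to miRNAs is not given in the sources used here. Groups follow the sample titles.

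Counts were tested with edgeR 4.0.16 in R 4.3.3 (quasi-likelihood test, TMM, filterByExpr with minima of 10 counts and 15 in total), on the whole table, with Benjamini-Hochberg adjustment over all entries tested. LL against LH and FL against FH used their 8 libraries, and the other comparisons used all 16. The SE is the absolute log2 fold change divided by the square root of F. A member was past the threshold with P under 0.05 before adjustment and a log2 fold change of 1 or more in either direction. DESeq2 1.42.0 was an alternative. Exact permutation tests and correlations used log2(CPM + 1). Pairs were tested over all 331776 orders of sows within groups and adjusted over 19900 pairs of known miRNAs. Tests were checked on simulated data.

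Other alternatives were other scalings, filters, covariates, pseudocounts of 0.5 and 5, collapsed identical entries, a replicate block and leaving out each sow. Merging entries of a position and leaving out LH4, FL2 and FL4 were chosen after seeing the data. The members and lists were chosen with earlier results of these data known. Named were all members, ssc-miR-381, scaffold loci that passed the filter and the 5 most alike miRNAs. Positions and sequences of predicted miRNAs, parity and clean read shares come from the study's supplement. Sows are separate animals. The library was not made with molecular identifiers as far as the sources tell, so counting limits cover counting error only. RefSeq names and gene order come from Sscrofa11.1, whose coordinates were not used, and 7 of 7 named miRNAs matched. The leukocyte list without ssc-miR-142-5p and the loci that pass in each phase alone were also chosen after seeing the data.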

Additional observations from a re-analysis of the deposited data

Results flagged for a closer look

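In FH, sow 1 stood apart from the other 3 for ssc-miR-127 (330.0 CPM, the next at 137), ssc-miR-432-5p (5.81 CPM, the next at 1.92) and NovelmiRNA-1444 (3.89 CPM, the next at 1.31). In the other groups, LL2 was low for NovelmiRNA-189 (0.825 CPM, the next at 2.33), LH1 was high for NovelmiRNA-254 (9.09 CPM, the next at 3.22) and LL4 was high for NovelmiRNA-887 (2.995 CPM, the next at 1.44). These are 6 of the 56 groups of 4 sows examined by the gap of the extreme sow relative to the range (Dixon's test), where chance passes about 1 in 20. FH1 accounts for 3 of the 6.

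The fecundity difference of ssc-miR-381 differed between the phases by a log2 value of 1.37 (SE 0.60, edgeR adjusted p = 0.326), higher in FL than FH (0.94) and lower in LL than LH (-0.31), neither of which passed the threshold by itself. The adjusted p of the alternatives ran from 0.164 to 0.879.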

How the results depend on the processing

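Over the alternatives run, 71 of 85 values that answer a comparison stayed within 1.5 times the reported count, or within the spread of r, in fits that left out no single sow. Members past the threshold in LL against LH were 1 (ssc-miR-136) with parity as a covariate. In FL against FH they were 1 (ssc-miR-127) with library size only, RLE factors, no filter, all 16 libraries in a single fit, DESeq2 or TMM factors taken from known miRNAs. In low against high fecundity they were 3 with library size only. In the follicular against the luteal phase they were 0 with no filter and 2 with LH4, FL2 and FL4 left out. Member pairs past the adjusted p were 4 with library size only, and the median r was 0.192 in the luteal libraries alone. Scaffold loci lower in the follicular phase, a count given as a description, were 0 with no filter and 3 with the entries as deposited. Except for DESeq2, the shares of all entries or pairs that passed in the same setting are not given, here or with single sows left out. These counts therefore describe the settings and are no result about the members. The causes were not tested.

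With single sows left out, members past the threshold ran from 0 to 2 in FL against FH (2 without FH1 or FL1, 1 without FL3), from 0 to 2 in low against high fecundity (2 without FH1, 1 without LH1), from 1 to 2 in the follicular against the luteal phase (2 without FL4) and from 0 to 1 in the interaction (1 without LH2, LH4, FH1, FL1 or FL3). The median r ran from 0.227 (without FL4) to 0.608, and the scaffold loci from 1 to 6.

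Log2 fold changes turned sign only where they had not passed the threshold. In LL against LH, ssc-miR-127 had -0.016 with entries merged, -0.11 with LH4, FL2 and FL4 left out and -0.17 to 0.39 with single sows left out. With library size only, ssc-miR-136 had 0.15, ssc-miR-493-5p 0.27 and ssc-miR-381 0.23 in LL against LH, and ssc-miR-136 had 0.41 in low against high fecundity. With parity as a covariate, ssc-miR-376c had -0.90, ssc-miR-493-5p 0.016 and ssc-miR-381 0.11 in LL against LH, ssc-miR-432-5p had -0.0013 in FL against FH, and ssc-miR-493-5p had -0.19 in low against high fecundity. With single sows left out, ssc-miR-136 ran from -0.23 to 0.10 in low against high fecundity and ssc-miR-432-5p from -0.27 to 0.86 in the interaction, where it had -0.34 without LH4, FL2 and FL4.

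Scaling by library size alone moved the median log2 fold change of all entries by 0.58 in LL against LH, 0.32 in FL against FH, 0.47 in low against high fecundity, -0.38 between the phases and -0.29 in the interaction.

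The replicate numbers did not pair the sows. Deviations of same-numbered sows correlated between -0.448 and 0.412, above 0.1 in 9 of 24 pairs, and a sow was closest to its own number in 14 of 48 comparisons. With the replicate block, 1 member passed the threshold between the phases (ssc-miR-493-5p, edgeR adjusted p = 0.0465) and 0 in each other comparison, the scaffold loci were 4 and the median r was 0.617.

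Depth limits ssc-miR-376a-5p, ssc-miR-493-5p in the follicular groups and most scaffold loci, which rest on few counts.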

Other observations

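Between low and high fecundity over both phases, the scaffold loci NovelmiRNA-189, NovelmiRNA-254 and NovelmiRNA-464, chosen after their values were seen, had the lowest P of the 10 tested, and none had an edgeR adjusted p under 0.05. The study's threshold was passed by these 3 of the 10, beside 11.5% of the 460 entries of the merged table. The 3 were picked by their P, and NovelmiRNA-464 entered through its luteal counts. The count of 3 is therefore a description and no evidence of an excess. NovelmiRNA-189 had a log2 fold change of 1.49 (SE 0.65, edgeR adjusted p = 0.248). Its levels were 0, 0.793, 0.878 and 1.123 CPM in LH and 2.33, 0.825, 2.33 and 2.34 CPM in LL, then 0.766, 0.451, 0.635 and 0.545 CPM in FH and 0.814, 1.46, 1.90 and 3.67 CPM in FL. All 4 FL sows lay above all 4 FH sows, for which the share over all entries was not taken. In FL against FH NovelmiRNA-189 passed the study's threshold (log2 fold change 1.52, edgeR adjusted p = 0.539), as did 6.19% of the 323 entries of the merged table. NovelmiRNA-254 had 1.15 (SE 0.52, edgeR adjusted p = 0.248), with LL sows at 6.401 to 8.21 CPM and LH1 as the single LH sow above them. NovelmiRNA-464 was at 0 in all 4 FH sows and in 3 FL sows, with 53 counts in FL4, so that no fold change is given.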
